A study of Rattus norvegicus with 38 samples.

Results

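Peaks of the histone mark H3K27ac that lie within introns were described in the brain of rats given the pesticide rotenone. The members were selected by the authors' own comparison of rotenone with vehicle: a peak had to stand in 1 of their 4 lists of differentially acetylated peaks (SN or motor cortex, hyperacetylated or hypoacetylated after rotenone) and to carry an annotation that begins with intron. In all, 2914 intronic peaks met this rule, 475 of them SN peaks and 2439 motor cortex peaks, out of 11317 peaks in the 4 lists and 151509 detected peaks. Each position was found again in the deposited peak positions of its region. Hyperacetylated means more H3K27ac after rotenone and hypoacetylated means less. The read counts, fold changes and error rates that put a peak on a list belong to the rule that chose the members, so they are not given or tested.

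The tissue came from 9 male Lewis rats aged 8 to 10 months. Rotenone was injected into the peritoneum of 5 rats at 2.8 mg/kg a day for 21 days, 4 rats received vehicle, and the brain was dissected 24 h later than the final dose. Elsewhere the study speaks of dosing up to a behavioural endpoint, and the vehicle is called PBS in one label and an oil, Miglyol, elsewhere. SN samples are labelled ventral midbrain, the block of tissue that holds the substantia nigra. Every rat gave both tissues. The 38 sequenced samples are runs, and most libraries were run on more than 1 lane. They include 4 input runs, all from cortex. SN rotenone had 10 runs for 5 rats and SN vehicle 8 for 4. Motor cortex rotenone had 8 runs for 5 rats and motor cortex vehicle 8 for 4, so lanes were not balanced in the motor cortex. Rotenone blocks mitochondrial complex I and is used to model Parkinson's disease. The peaks of a region were called once on the reads of all its rats, so there is 1 position list per region, with no value per rat, no depth and no replicate error. The deposited SN list, with 70744 peaks, is much longer than the number of SN peaks the study describes, while the motor cortex list is close to its described number. Shares and medians over all detected SN peaks are therefore those of the deposited list, and a shorter SN list would change them. The study also describes higher read coverage for the motor cortex, so counts of the regions were not obtained at equal depth. The tissue labels could not be checked against marker genes, because positions carry no level. In bulk tissue, fewer cells of a type and less acetylation per cell cannot be told apart.

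H3K27ac, the acetylation of lysine 27 of histone H3, lies on the nucleosomes around active promoters and active enhancers. Introns hold a large part of the enhancers of the mammalian genome, and the first intron of a gene often carries elements that act on the promoter beside it. An intronic enhancer may act on its host gene or on another gene at a distance, so the host gene says where a peak lies and not which gene it controls.

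The share of peaks that lay in introns was highest among hyperacetylated peaks of the motor cortex. There, 1247 of 4015 peaks (31.1%) were intronic, against 1192 of 5212 hypoacetylated peaks (22.9%). In the SN, 189 of 874 hyperacetylated peaks (21.6%) and 286 of 1216 hypoacetylated peaks (23.5%) were intronic. Distal peaks made up 51.0% of all 4 lists together, promoter peaks, within 3 kb of a start site, 12.5%, and exonic peaks 7.49%. As background to these counts, the lists held 1.24% (hyperacetylated) and 1.72% (hypoacetylated) of the detected SN peaks and 4.97% and 6.45% of the detected motor cortex peaks. The SN shares would be higher over the smaller number of peaks the study describes. These shares were fixed by the rule and nothing is read from them.

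A host gene could be named for 188 hyperacetylated and 279 hypoacetylated SN peaks and for 1246 hyperacetylated motor cortex peaks, which lay in 163, 212 and 772 genes. For the hypoacetylated motor cortex peaks the annotation text was cut short, so the gene with the nearest start site stands in for the host, with 767 genes over 1148 peaks. The stand-in is imperfect: in the other 3 lists the host was also the nearest gene for 81.5%, 77.6% and 78.5% of the intronic peaks. A hypoacetylated motor cortex peak named for Ttc12 at chr8:49971729-49988416, for example, covers the position of the SN peak that lies in intron 1 of Ncam1, a neural adhesion molecule. All positions are mRatBN7.2 and count from 1.

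Intron 1 held more of the peaks than any other intron number in the 3 lists that give one, and the distance to the start of the gene was not measured. Of the hyperacetylated SN peaks, 84 of 189 (44.4%, 95% Wilson interval 37.5 to 51.6) were in intron 1. Among hypoacetylated SN peaks the number was 82 of 286 (28.7%, 23.7 to 34.2), and among hyperacetylated motor cortex peaks 476 of 1247 (38.2%, 35.5 to 40.9). If each peak had fallen with equal chance in any intron of its host, whatever its length, the shares would have been 12.7%, 13.3% and 12.7%. Intron lengths were not used and no share over all detected intronic peaks was computed, so the intron 1 shares are a description. Intron 2 held a further 20.6%, 23.1% and 19.2%. Peaks in intron 5 or later made up 21.7%, 29.7% and 26.4%, and the median host had 12 introns in each of the 3 lists. The intervals of both SN lists do not overlap, but they cover counting error over peaks only. Peaks of 1 gene are not independent, and the difference was not tested. The highest intron number belonged to the motor cortex peaks of Vps13d, a lipid transfer protein whose loss causes a movement disorder, which lay in introns 64 to 66 of 69.

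Intronic peaks of all 4 lists had a higher median width than the detected peaks of their region. The median width was 2321 bp (quartiles 1736 and 3478) for 189 hyperacetylated SN peaks and 2054 bp (1349 and 3182) for 286 hypoacetylated ones. All detected SN peaks had a median of 994 bp, and 84.1% and 80.3% of them were narrower than those medians. In the motor cortex the medians were 1605 bp (960 and 2562) for hyperacetylated and 1769.5 bp (976 and 2980) for hypoacetylated intronic peaks, against 1245 bp over the detected list. Intronic peaks were narrower than the promoter peaks of the same lists, whose medians were 3080, 2575, 1997 and 3035 bp, and wider than the distal peaks, at 2107, 1775, 1384 and 1530 bp. Of the intronic SN peaks, 0 hyperacetylated and 2 hypoacetylated ones (0.699%) belonged to the narrowest quartile group of the deposited list. For the motor cortex list, 164 hyperacetylated (13.2%) and 174 hypoacetylated (14.6%) intronic peaks did. The deposited SN list is longer than the one described, so some of its narrow peaks may never have been open to selection. The part of this in the SN widths was not tested, and the regions are not compared in width. No read counts were used, so width is given with no account of signal.

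**Figure D1:**
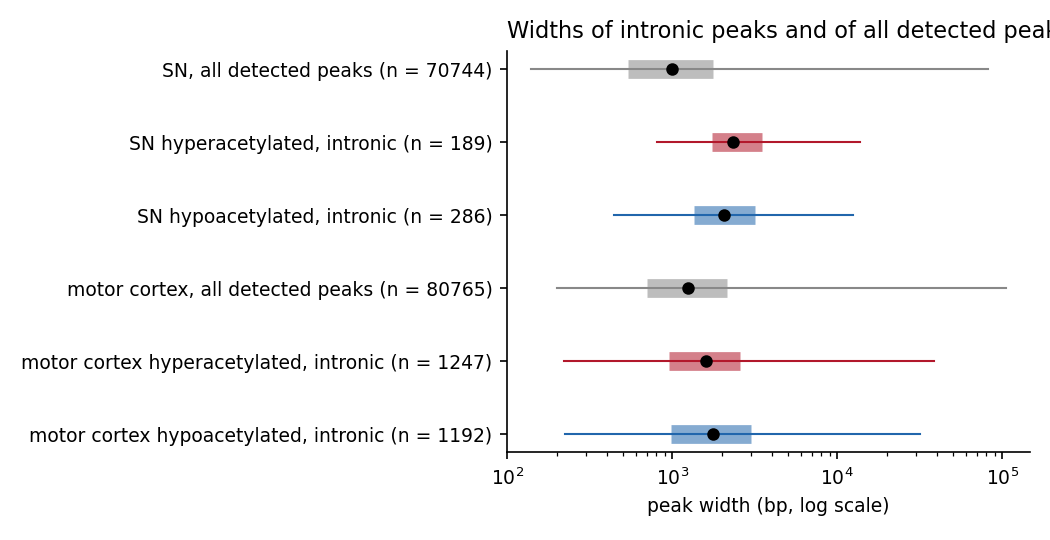
Peak width in bp on a log scale for all detected peaks of a region (grey) and for intronic peaks that were hyperacetylated (red) or hypoacetylated (blue), where black points are medians, thick bars the quartiles and thin lines the lowest and highest width. The medians of intronic SN peaks, 2321 and 2054 bp, lie above the deposited SN list (994 bp), and those of the motor cortex, 1605 and 1769.5 bp, above theirs (1245 bp).

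The widest intronic peak of all was a hyperacetylated motor cortex peak of 38555 bp at chr10:89147533-89186087. It lay in intron 1 of 9 of Mapt, the gene of the microtubule protein tau, and overlapped 5 SN peaks, none of them in a list, and had narrower hyperacetylated neighbours of 3351 bp in the same intron and 1357 bp in intron 2. Baalc followed with 16332 bp in intron 1 of 2, over no SN peak. Ptk2b, the calcium-dependent kinase Pyk2, had 12253 bp in intron 1 of 30. Hypoacetylated motor cortex peaks reached 31610 bp beside Bcl11a, a zinc finger repressor of neurons and blood cells, 19490 bp beside Msra, which repairs oxidised methionine, and 17172 bp beside Ptn, the growth factor pleiotrophin. The first 2 of these 3 overlapped no SN peak.

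In the SN the widest hyperacetylated intronic peak, 13689 bp at chr13:92137027-92150715, lay in intron 2 of 7 of Itpkb, a kinase of the inositol phosphates. Next came 12684 bp in intron 2 of Myo18a, an unconventional myosin, and 12426 bp in the single intron of Adora1, the adenosine A1 receptor. The Adora1 peak overlapped a hyperacetylated motor cortex peak. Among hypoacetylated SN peaks, the widest was the 12488 bp peak in intron 1 of Ncam1. Ugt8, which makes the main glycolipid of myelin, followed with 10842 bp at chr2:214290967-214301808 in intron 2 of 5. Pak5, a kinase of neurons, had 8130 bp in intron 1 of 10.

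Most genes had a single intronic peak in both regions, 144 and 172 genes in the SN and 516 and 539 in the motor cortex. Genes with several were more frequent in the motor cortex, whose lists are longer. The part of list length and read coverage in this was not tested. In the SN, 19 of 163 genes held 2 or more hyperacetylated intronic peaks and 40 of 212 held 2 or more hypoacetylated ones. In the motor cortex the numbers were 256 of 772 and 228 of 767, and these genes held 58.6% and 53.0% of the intronic peaks with a gene name. Genes with 5 or more numbered 0 and 3 for the SN, against 26 and 17 for the motor cortex.

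Pbx3, a homeodomain transcription factor, held the longest run in the SN. All 14 of its intronic peaks were hypoacetylated and lay within 93.8 kb, chr3:17528450-17622289, with 1 in intron 3 and 13 in intron 2 of 8. They were 794 to 5958 bp wide. Of the 36 detected SN peaks in that span, 15 were hypoacetylated, 0 were hyperacetylated and 21 were in no list. Over the wider stretch that includes the promoter, 51 SN peaks and 8 motor cortex peaks were detected, and 2 of the 14 overlapped one of the latter. Both of these motor cortex peaks, 285 and 722 bp wide, were hypoacetylated too, as were all 5 intronic motor cortex peaks named for Pbx3. A promoter peak of Pbx3 at chr3:17678296-17679844 was also hypoacetylated in the SN.

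Smok2a, a kinase of the sperm motility family, came next in the SN with 8 hypoacetylated intronic peaks, 7 of them within 56.5 kb on chromosome 1. None overlapped a motor cortex peak. Smok genes exist in near-identical copies, so reads could have been placed on the wrong copy, and these peaks are uncertain. Ptprt, a receptor tyrosine phosphatase, held 5 hypoacetylated peaks in introns 6 to 11 of 27. Sgms1, which makes sphingomyelin, held 4, and Plekhg1, an exchange factor of small GTPases, held 3. Chromosome 3, with Pbx3 and Ptprt, had the highest share of hypoacetylated intronic SN peaks, 42 of 5341 detected peaks (0.786%). Over all chromosomes there were 286 hypoacetylated and 189 hyperacetylated intronic peaks among 70744 detected SN peaks. The peaks of Pbx3 and of Ptprt are not independent, and the share of chromosome 3 was not tested. Chromosome X had 0 of 993 in either direction, which at such low shares over all chromosomes is no result.

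Hyperacetylated SN peaks were spread more thinly. Tns3, a focal adhesion protein also made by young oligodendrocytes, held 4, 3 of them within 10.7 kb of intron 2. Disc1, a scaffold protein of the centrosome and synapse, held 4, in introns 1 and 12 of 12. Spidr, a DNA repair scaffold, and Cux1, a homeodomain factor of upper-layer cortical neurons, held 3 each, and Myo18a held 2. For all 3 peaks in Spidr the gene with the nearest start site was Cebpd.

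In the motor cortex, Spock1, a secreted proteoglycan also called testican-1, held 18 hyperacetylated intronic peaks over 333.2 kb in introns 2 to 6 of 10. The 12 with the lowest coordinates formed 1 run, chr17:6819930-6979515, with 24 detected peaks of which 12 were in no list and 0 were hypoacetylated. The same gene had a hypoacetylated motor cortex peak of 14597 bp at chr17:6768834-6783430, 36.5 kb from the nearest hyperacetylated one. It overlapped both hypoacetylated SN peaks of Spock1, 4647 and 1179 bp wide. The hyperacetylated peaks overlapped SN peaks in 15 of 18 cases, and none of those SN peaks was in a list.

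Elmo1, which with DOCK proteins activates Rac in cell engulfment and migration, held 9 hyperacetylated motor cortex peaks within 84.1 kb of introns 1 to 6 of 21. Every one overlapped an SN peak. The widest of them, 8942 bp at chr17:44675456-44684397, matched a hyperacetylated SN peak of 9873 bp in the same intron 4. A hypoacetylated motor cortex peak named for Elmo1 lay 157246 bp away. Itpk1, another inositol phosphate kinase, held 11 hyperacetylated peaks, 10 of them in intron 2. Capzb, which caps actin filaments, and Dab2ip, a Ras GTPase activator, held 8 each.

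Among hypoacetylated motor cortex peaks, Dlg2, the postsynaptic scaffold PSD-93, led with 10, of which 1 overlapped an SN peak. A run of 7 lay within 59.4 kb at chr1:145389657-145449007, and 7 of the 9 detected peaks in that span were hypoacetylated. Its promoter peak was hypoacetylated as well. Dlg2 also held 2 hyperacetylated peaks, in introns 2 and 13 of 22, 1 of which lay between hypoacetylated ones. Tmem117 and Slc9a9, a sodium-proton exchanger of endosomes, were the nearest gene of 8 each, and Msra and the pseudogene Rps4x-ps1 of 7 each. Slc9a9, Msra and Rps4x-ps1 had 0 that overlapped an SN peak. Rps4x-ps1 is a copy of a ribosomal protein gene, so its name is uncertain. Other runs of 7 stood beside Srgap2 and Ikbke over 129.0 kb and beside Frmd4a and Prpf18 over 95.3 kb, and in both all 7 overlapped an SN peak.

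**Figure D2:**
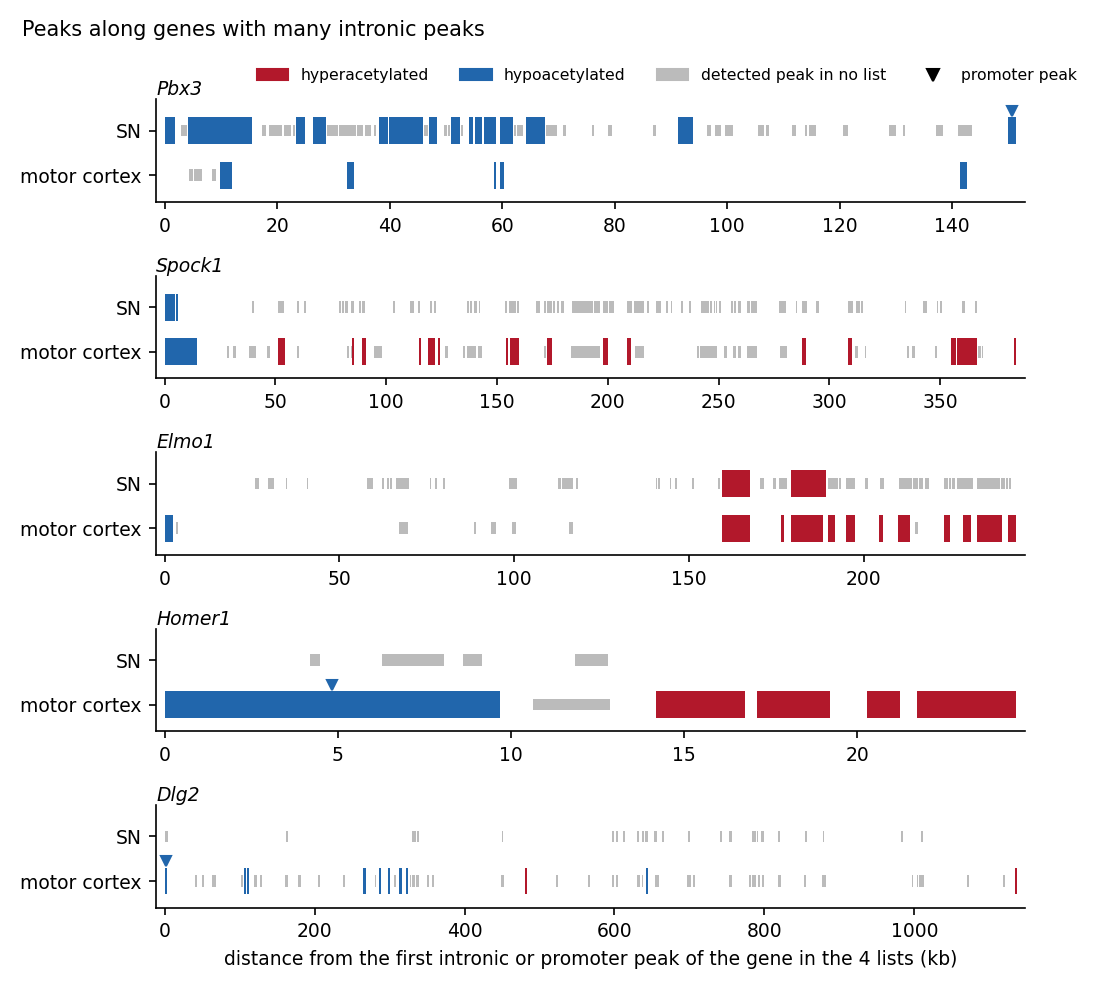
Detected peaks along 5 genes as distance in kb from the first intronic or promoter peak in the 4 lists, in the SN (upper row) and motor cortex (lower row), where red is hyperacetylated, blue hypoacetylated and grey in no list; coloured blocks include exonic and other listed peaks, and a triangle marks a promoter peak. Pbx3 shows 14 blue intronic SN peaks among 51 detected, Spock1 a blue block followed by 18 red motor cortex peaks, and Homer1 a blue promoter beside 4 red intronic peaks.

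Most intronic peaks of 3 lists had no intronic neighbour of their own list within 50 kb, and hyperacetylated motor cortex peaks were the exception. Within 50 kb of another intronic peak of the same list lay 37 of 189 hyperacetylated (19.6%) and 97 of 286 hypoacetylated (33.9%) SN peaks, and 651 of 1247 (52.2%) and 536 of 1192 motor cortex peaks. Over all peaks of the lists, which have more neighbours to meet, the shares were 34.4%, 38.7%, 60.4% and 54.1%. An intronic peak of the opposite direction lay within 50 kb of 5 peaks (2.65%) and 5 peaks (1.75%) in the SN, and of 84 (6.74%) and 82 (6.88%) in the motor cortex. The motor cortex lists are longer than those of the SN, and the part of list length in these shares was not tested.

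Windows of 2 Mb that held 10 or more peaks of a list took up few intronic SN peaks, 1 hyperacetylated (0.529%) and 23 hypoacetylated (8.04%), against 2.52% and 13.5% of all listed peaks. In the motor cortex they held 490 (39.3%) and 315 (26.4%), close to the 40.3% and 27.2% over all listed peaks. Intronic peaks often had a detected neighbour close by. It stood within 1 kb of 61.4%, 53.8%, 50.9% and 51.8% of them, against 44.8% of all detected SN peaks and 43.9% of all detected motor cortex peaks.

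Some genes held intronic peaks of both directions in 1 region. In the SN they were 12 genes, 7.36% of the hyperacetylated and 5.66% of the hypoacetylated genes. By nearest gene, they were 104 genes in the motor cortex, 12.8% and 13.6%. Over all protein-coding genes, 0.916% had a hypoacetylated and 0.704% a hyperacetylated SN peak, and 3.24% and 3.33% such a motor cortex peak. Gene length was not used here. Pde4b, a cAMP phosphodiesterase, held 2 of each in the SN. The hypoacetylated pair lay in intron 1 and the hyperacetylated pair in introns 2 to 5 of 14, 220333 bp apart at the closest. Cux1 held 3 hyperacetylated peaks in introns 1 and 2 and a hypoacetylated one in intron 8 of 22. Zbtb20, a repressor needed for hippocampal and astrocyte development, held 1 and 2. Vmp1, an autophagy protein, and Pdzd2 each held 2 and 1. None of the SN genes with 2 or more peaks of one direction had an opposite one between its outermost peaks. Within the motor cortex 12 of 256 genes did, with 16 hypoacetylated peaks inside the hyperacetylated span. Asic2, an acid-sensing channel, had 2 such peaks inside the span of 5. Beside Spock1, Dlg2 and Elmo1, the motor cortex genes with most peaks over both directions were Rps4x-ps1 with 1 hyperacetylated and 7 hypoacetylated peaks and Prkcb, a protein kinase C, with 2 and 5.

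Most genes with intronic peaks had no listed promoter peak, and where 1 was listed it mostly shared the direction. A promoter peak in the same direction was listed for 8, 6, 81 and 60 genes of the 4 lists in the order above. These were 4.91%, 2.83%, 10.5% and 7.82% of the genes with intronic peaks. A promoter peak in the other direction was listed for 1, 3, 21 and 14 genes (0.613%, 1.42%, 2.72% and 1.83%), and none for 154, 203, 670 and 693. In the hypoacetylated motor cortex list the genes are the nearest ones, which need not hold the intronic peak. The share of all genes with a listed promoter peak was not computed, so whether these shares are low or high cannot be said. In the SN, Bcl3, a nuclear partner of NF-kB, had a hyperacetylated peak of 2759 bp in intron 2 of 8 at chr1:79478544-79481302 and a hyperacetylated promoter peak at chr1:79484391-79487679. Hyperacetylated motor cortex peaks overlapped both, 1064 bp wide in the intron and 741 and 1200 bp wide at the promoter. Cux1, Myo18a and Rxra, a nuclear receptor for retinoids, also had both in the SN. Rab31 with 7 intronic peaks, Ksr1 with 6 and Kdm4b, a histone demethylase, with 5 led the hyperacetylated pairs of the motor cortex. Dlg2, Plcl2 and Dlgap1 with 10, 6 and 5 led the hypoacetylated ones.

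Homer1, a postsynaptic scaffold that binds metabotropic glutamate receptors, had the most intronic peaks among the opposed genes of the motor cortex. Its promoter lay under a hypoacetylated peak of 9692 bp at chr2:24535909-24545600. In intron 1 of 9 followed 4 hyperacetylated peaks of 2581, 2096, 952 and 2855 bp, all within chr2:24550098-24560508. None of the 4 overlapped an SN peak. Dnaaf9 and Phactr1, with 3 hyperacetylated intronic peaks each, Sort1 and Rps6ka5, with 2 each, also had a hypoacetylated promoter peak. The reverse was read for Mir297, Itpr2, an inositol trisphosphate receptor, Spata13, Afg1l and Acvrl1. Their hypoacetylated intronic peaks carry the name of the nearest gene, so they may lie in an intron of another gene. Those named for Acvrl1, at chr7:132113901-132117373, lay far from its promoter peak at chr7:132244050-132244809, so an opposition within Acvrl1 is uncertain. Mir297 is also uncertain because it exists in copies. In the SN the opposed genes were Tmeff2, with a hyperacetylated intronic peak, and Olfml2b, Cux1 and Mdga2, with a hypoacetylated one.

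The sequences of the intronic peaks are not printed, as no genome of their build was used here. The promoters of Bcl3, whose listed peaks shared a direction, and of Homer1, whose promoter and intronic peaks did not, are shown as RefSeq gives them in the build GRCr8, 300 bases in the direction of the gene. Capitals mark GGGCGG, the GC box bound by Sp1, read on both strands; TGACG, the core of the cAMP response element, was searched in the same way.
Bcl3: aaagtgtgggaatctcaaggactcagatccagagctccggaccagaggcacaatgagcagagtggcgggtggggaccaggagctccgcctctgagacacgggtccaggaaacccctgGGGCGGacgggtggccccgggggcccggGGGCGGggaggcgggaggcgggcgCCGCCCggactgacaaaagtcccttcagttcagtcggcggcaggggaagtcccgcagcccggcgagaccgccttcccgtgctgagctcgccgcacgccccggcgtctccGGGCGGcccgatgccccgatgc
Homer1: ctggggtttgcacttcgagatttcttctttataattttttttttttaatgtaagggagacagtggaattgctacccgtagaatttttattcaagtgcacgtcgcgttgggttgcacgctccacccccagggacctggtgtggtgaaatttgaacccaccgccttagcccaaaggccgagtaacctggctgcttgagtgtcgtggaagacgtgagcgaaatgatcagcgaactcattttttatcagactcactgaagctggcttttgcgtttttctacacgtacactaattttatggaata
The Bcl3 window was 71.7% G or C with 30 CpG dinucleotides and held 4 GC boxes, and the Homer1 window was 44.7% G or C with 14 CpG and held 0. Neither held the cAMP core. Over all 33469 promoter windows the medians were 51.7% and 7 CpG, 33.1% held a GC box and 21.2% the cAMP core. The peaks are in another build, so they are not placed on these letters.

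Glutamate receptors and postsynaptic scaffolds were the gene group with most intronic peaks in the motor cortex, and they were found in both directions. Of its 52 genes, 19 held 35 hyperacetylated peaks and 17 held 37 hypoacetylated ones. Over all 23154 protein-coding genes the shares with an intronic peak were 3.33% and 3.24%, against 36.5% and 32.7% here. For the SN lists the shares over all genes were 0.704% (hyperacetylated) and 0.916% (hypoacetylated), and these 4 shares are the background of every gene group. Names in the hypoacetylated motor cortex list are those of the nearest gene. Gene length was not used, so these shares are not per length. Hyperacetylated peaks were most numerous in Ank3, the ankyrin of the axon initial segment, with 5, in Gria1, an AMPA receptor subunit, and in Homer1, with 4 each, and in Magi2 and Grik4, with 3 each. The 4 peaks of Gria1, in introns 11 to 15 of 15, overlapped no SN peak. Hypoacetylated peaks were most numerous beside Dlg2 with 10, Dlgap1 with 5, Magi1 with 4, and then Shank2, Dlg1 and Dlgap2 with 2 each. In the SN the group had 4 genes with 1 hyperacetylated peak each, among them Camk2b, and 3 with 1 hypoacetylated peak each, Grm3, Grid1 and Magi1.

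Other neuronal groups had counts of the same order. Voltage-gated ion channels, 47 genes, had 12 genes with 15 hyperacetylated and 8 with 11 hypoacetylated motor cortex peaks, and 0 in the SN. The SN shares over all genes, 0.704% and 0.916%, are so low that 0 of 47 is no result. Kcnq3, which gives the M current, held 3 hyperacetylated peaks and Kcnn2, a calcium-activated potassium channel, 3 hypoacetylated ones. Axon guidance and cell adhesion, 67 genes, had more hypoacetylated than hyperacetylated genes in both regions, with 9 genes and 10 peaks against 2 and 2 in the SN and 17 genes and 28 peaks against 9 and 19 in the motor cortex. The SN genes were 13.4% and 2.99% of the group, against 0.916% and 0.704% of all genes, and the difference between directions was not tested. Ncam2 and Ephb1, a neural adhesion molecule and an ephrin receptor, held 4 hypoacetylated motor cortex peaks each and 1 each in the SN. Tenm4, a teneurin, held 6 hyperacetylated motor cortex peaks, none over an SN peak.

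Cyclic nucleotide and protein kinase C signalling, 39 genes, had 7 genes with 9 hypoacetylated and 2 with 3 hyperacetylated SN peaks. In the motor cortex 10 genes had 19 hypoacetylated and 7 had 16 hyperacetylated peaks. These genes were 17.9% and 5.13% of the group in the SN, against 0.916% and 0.704% of all genes. The motor cortex shares were 25.6% and 17.9%, against 3.24% and 3.33%. Prkcb held 5 hypoacetylated motor cortex peaks. Prkcz and Adcy5, an adenylyl cyclase, held 4 hyperacetylated ones each. In the SN, Prkca held 2 hypoacetylated peaks that both overlapped a motor cortex peak. Wnt signalling, 50 genes, had 4 hypoacetylated and 0 hyperacetylated SN peaks, in Lgr4, Tcf7l2, Tcf7l1 and Ror1. These 4 genes were 8% of the group. With 0.704% of all genes hyperacetylated in the SN, 0 of 50 is no result about direction. Within the motor cortex the Wnt group had 3 genes (6%) with 5 hyperacetylated and 4 (8%) with 4 hypoacetylated peaks, Lgr4 and Tcf7l2 again among the latter.

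The glucocorticoid, cytokine and NRF2 groups had more hyperacetylated than hypoacetylated intronic peaks. The share of their genes with a hyperacetylated motor cortex peak was 12.9%, 14.3% and 11.5%, against 3.33% of all protein-coding genes. Of 31 glucocorticoid response genes, 1 had a hyperacetylated SN peak, Fkbp5, a co-chaperone of the glucocorticoid receptor. Its peak in intron 5 of 10, chr20:6478809-6480780, overlapped a hyperacetylated motor cortex peak at chr20:6478704-6480826. Within the motor cortex the group had 4 genes with 7 hyperacetylated peaks, 3 of them in Sesn1, and 3 genes with 4 hypoacetylated peaks. The 42 genes of NF-kB, STAT3 and cytokine signalling had Bcl3 in the SN and 6 genes with 6 hyperacetylated and 2 with 3 hypoacetylated motor cortex peaks. Oxidative stress and NRF2 targets, 26 genes, had 2 genes with hyperacetylated SN peaks. These were Mgst2 and Nfe2l2, the gene of NRF2 itself, whose peak of 2647 bp in intron 1 of 4 overlapped a hyperacetylated motor cortex peak of 1418 bp. Within the motor cortex 3 genes held 6 hyperacetylated peaks and 1, Mgst2, held 2 hypoacetylated ones. Circadian and Hippo or TGF-beta regulators, 27 genes, had 1 gene in each direction in the SN and 1 with 2 hyperacetylated and 3 with 5 hypoacetylated peaks in the motor cortex.

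Astrocyte, microglia and endothelial markers each had motor cortex peaks of 1 direction, while the other 3 marker groups had both. The shares of their genes with such a peak were 16.7%, 17.9% and 22.7%. Over all protein-coding genes the motor cortex shares were 3.33% (hyperacetylated) and 3.24% (hypoacetylated). These are so low that 0 genes in groups of this size is no result about direction. Astrocyte markers, 24 genes, had 4 genes with 10 hypoacetylated peaks and 0 hyperacetylated. They were Slc1a3 and Slc1a2, the glutamate transporters of astrocytes, with 3 and 2 peaks, Slc4a4 with 3 and Gli3 with 2. Microglia markers, 28 genes, had 5 genes with 7 hypoacetylated and 0 hyperacetylated peaks, among them Inpp5d with 3 and Cx3cr1 with 1. Endothelial and mural markers, 22 genes, had 5 genes with 8 hyperacetylated and 0 hypoacetylated peaks, among them Mecom with 3 and Vwf with 2. In the SN each of these groups had 1 gene with 1 peak, hyperacetylated for Nfia and Eng and hypoacetylated for Apbb1ip.

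Oligodendrocyte lineage markers, 30 genes, went both ways, with Tns3 hyperacetylated and Ugt8 hypoacetylated in both regions. Ugt8 held 2 SN and 3 motor cortex peaks, and each of the 5 overlapped a hypoacetylated peak of the other region. Further motor cortex genes were Enpp6 and Fa2h, with 3 hyperacetylated peaks between them, and Qki, with 1 hypoacetylated peak. Dopaminergic neuron markers, 20 genes, had 0 intronic peaks in either SN list, where the shares over all genes are so low that 0 of 20 is no result about them. Of the same group, Kcnj6 held 4 hyperacetylated and Sox6 2 hypoacetylated motor cortex peaks. Cortical projection neuron markers, 18 genes, had Cux1 in both SN lists, Cux1 and Cux2 with 3 hyperacetylated motor cortex peaks and Rasgrf2 and Tle4 with 3 hypoacetylated ones. Cell type composition was not measured.

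Of 19 genes of inherited Parkinson's disease, 2 held hypoacetylated SN peaks and 4 held hyperacetylated motor cortex peaks, with 0 genes the other way in either region. These were 10.5% and 21.1% of the group, against 0.916% and 3.33% of all genes, and with so few genes the difference between regions was not tested. For the other directions the shares over all genes were 0.704% (SN hyperacetylated) and 3.24% (motor cortex hypoacetylated). They are so low that 0 of 19 is no result about direction. Dnajc6, auxilin, which uncoats synaptic vesicles, held 2 hypoacetylated SN peaks of 7831 and 6033 bp in intron 1 of 17. Its 5 intronic motor cortex peaks were hyperacetylated, none of them over a listed SN peak. Mapt held 3 and Vps13d 2 hyperacetylated motor cortex peaks.

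**Figure D3:**
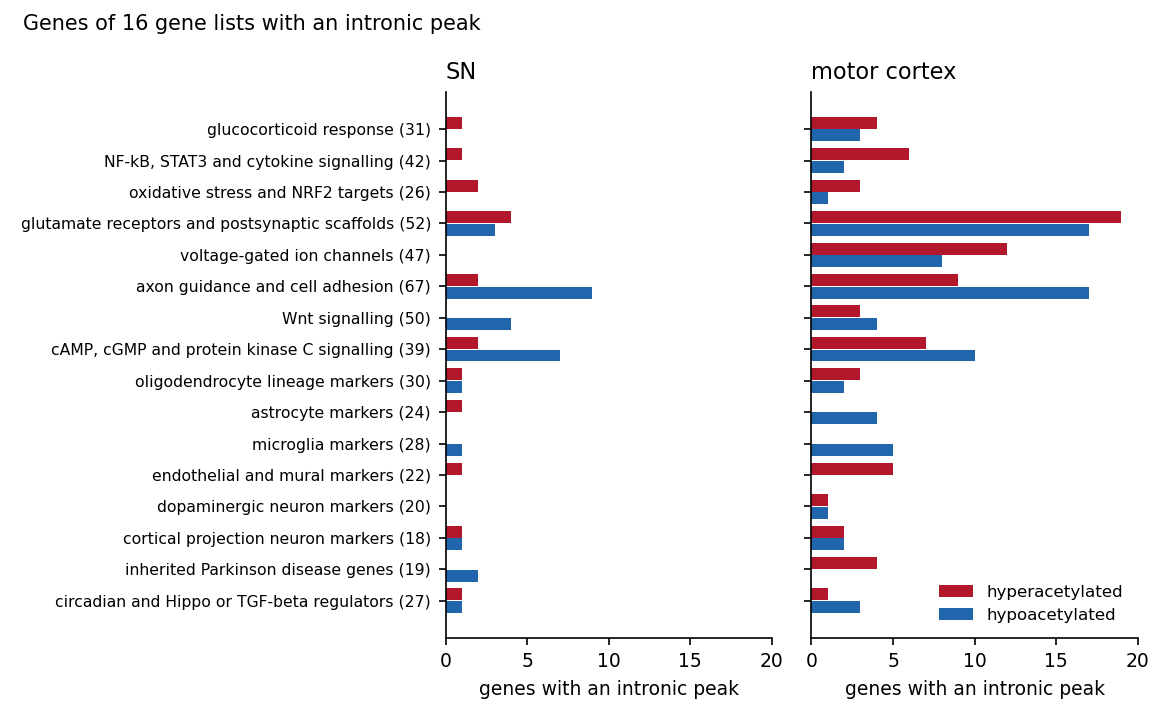
Number of genes with at least 1 intronic peak, hyperacetylated (red) or hypoacetylated (blue), in the SN (left) and motor cortex (right) for 16 gene groups, with the size of each group in brackets. The motor cortex bars reach 19 and 17 of 52 for glutamate receptors and scaffolds. Astrocyte and microglia markers have blue bars only there (4 and 5 genes) and endothelial and mural markers red only (5 genes). In groups of this size a missing bar is no result, as the shares over all genes are low.

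Most changed intronic SN peaks lay where a peak was also detected in the motor cortex. This held for 154 of 189 hyperacetylated peaks (81.5%, 75.3 to 86.4) and 232 of 286 hypoacetylated ones (81.1%, 76.2 to 85.2). Over all peaks of the deposited SN list the share was 65.3%. The study describes a shorter SN list, over which the share was not computed and could be as high as that of the intronic peaks. No excess is therefore read from this comparison. For the motor cortex, 858 of 1247 hyperacetylated intronic peaks (68.8%, 66.2 to 71.3) and 663 of 1192 hypoacetylated ones (55.6%, 52.8 to 58.4) overlapped an SN peak, against 55.1% of all detected motor cortex peaks. Promoter peaks of the same lists overlapped more often, at 96.0%, 93.1%, 86.5% and 83.7%.

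Width moved with this overlap, so the shares were also read within width quartile groups of the detected list. In the SN, 74.1% of hyperacetylated and 60.5% of hypoacetylated intronic peaks belonged to the widest quartile group. There 88.6% and 89.0% of them overlapped a motor cortex peak, below the 94.7% of all detected peaks as wide. For the motor cortex the hyperacetylated intronic peaks stood above the list in every quartile group, at 48.8% against 35.2% in the narrowest and 84.4% against 75.6% in the widest. The hypoacetylated ones, at 67.0% in the widest quartile group, stood below it there and were at 35.6% in the narrowest.

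**Figure D4:**
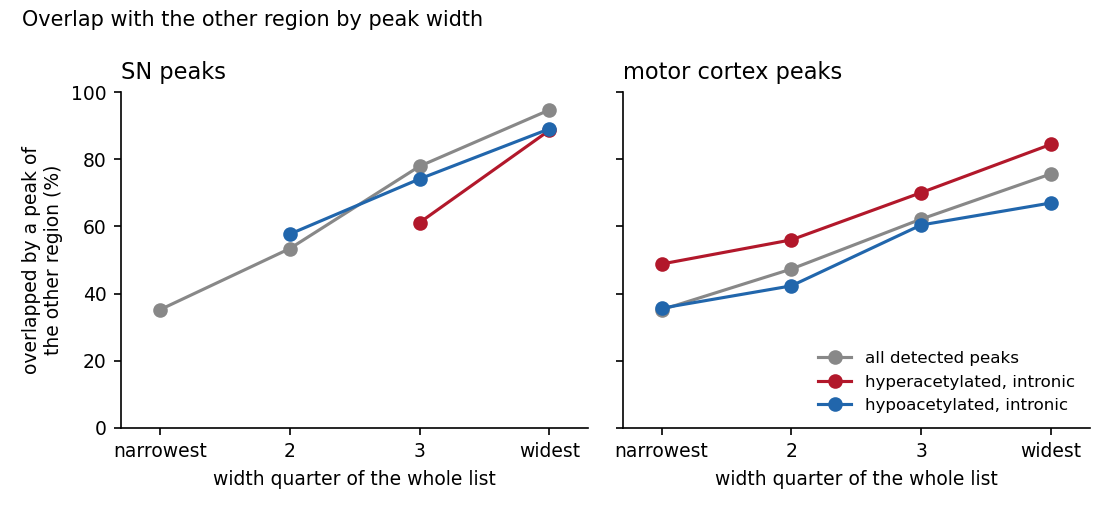
Percent of peaks overlapped by a peak of the other region, by width quartile group of all detected peaks of the region, for all detected peaks (grey) and for hyperacetylated (red) and hypoacetylated (blue) intronic peaks; groups with fewer than 20 intronic peaks are not drawn. In the SN both intronic groups lie under the detected list in the widest quartile group, 88.6% and 89.0% against 94.7%, and in the motor cortex the hyperacetylated ones lie above it throughout.

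An overlapped peak that was itself listed seldom had the opposite direction. Of the intronic SN peaks, 50 hyperacetylated (26.5%) and 102 hypoacetylated ones (35.7%) overlapped a motor cortex peak listed in the same direction, 1 and 0 overlapped only one of the opposite direction, and 103 and 130 overlapped peaks in no list. From the motor cortex lists, 58 of 1247 hyperacetylated (4.65%) and 117 of 1192 hypoacetylated peaks (9.82%) met an SN peak of the same direction, and 0 and 2 only an opposite one. The SN lists are shorter, so fewer listed peaks were there to be met.

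Counted as pairs with at least 1 intronic peak and both peaks listed, 184 of 186 (98.9%, 96.2 to 99.7) had the same direction, 61 hyperacetylated and 123 hypoacetylated in both regions. Pairs with no intronic peak had the same direction in 564 of 578 (97.6%), and all pairs together in 748 of 764 (97.9%). The study states a lower share for peaks significant in both regions, and the source of this difference was not tested. Each rat gave both tissues, so the pairs are not independent. The exceptions were Etv6 and Adpgk. In intron 2 of 7 of Etv6, a transcriptional repressor, the SN peak at chr4:167022681-167024977 was hyperacetylated and lay wholly inside a hypoacetylated motor cortex peak of 4923 bp. At Adpgk, a glucokinase that uses ADP, a hypoacetylated intronic motor cortex peak at chr8:59708451-59709876 lay under the end of a hyperacetylated SN promoter peak.

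**Figure D5:**
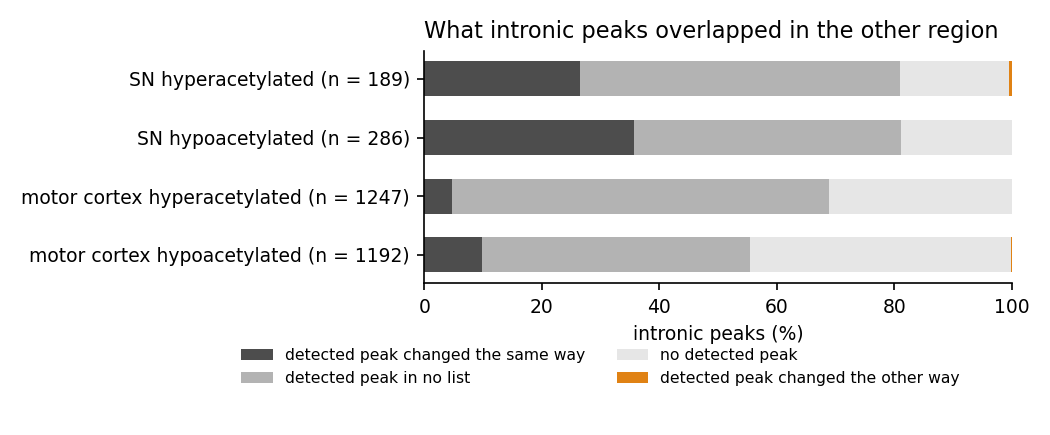
Percent of the intronic peaks of each list that overlapped a detected peak of the other region which changed the same way (dark grey), was in no list (mid grey) or changed the other way (orange), or that overlapped none (light grey). The dark share is 26.5% and 35.7% for the SN lists, 4.65% and 9.82% for the motor cortex lists, and the orange share holds 1 SN and 2 motor cortex peaks.

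Read by gene, the regions shared more genes within a direction than across. Over all protein-coding genes, 3.33% had a hyperacetylated and 3.24% a hypoacetylated intronic motor cortex peak. For the SN these shares were 0.704% and 0.916%. Every share that follows, also across directions, stood above them, and gene length was not used. Of the genes with hyperacetylated intronic SN peaks, 85 of 163 (52.1%) and of 772 motor cortex genes also had hyperacetylated ones in the motor cortex and 25 (15.4%; 3.26%) hypoacetylated ones. Comparisons with the hypoacetylated motor cortex list use the nearest gene on both sides. Of 217 genes with hypoacetylated SN peaks by nearest gene, 120 (55.3%) were hypoacetylated in the motor cortex, 15.6% of the 767 genes. Of 212 by host gene, 54 (25.5%) were hyperacetylated there, 6.99% of the 772 genes. Spock1 and Dnajc6 belonged to the last group, at different introns or positions in each region. The difference between the regions was not tested, as no list carries a value per rat.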

How the data were processed

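H3K27ac ChIP-seq was deposited as 1 list of peak positions per region. Per the labels and methods, the authors used Bowtie2 2.4.4 for alignment (build mRatBN7.2) and Picard 2.6.0 against duplicates. Reads of a region were pooled, and MACS2 2.2.7.1 found peaks over pooled input. The deposited files give the chromosome, start and end of each peak and nothing else, so the depth per sample is not in the files used, and the study describes higher coverage for the motor cortex. The lists of differentially acetylated peaks were read from a text copy of the study's supplement for position, annotation and gene name. Its columns of fold changes and error rates were not used. Of the names read for intronic peaks, 1, 0, 4 and 6 in the 4 lists pointed to another place in the genome and were dropped. No column was left without a sample (0 not mapped). Host genes were matched by gene ID to RefSeq names (GRCr8).

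Overlaps of at least 1 bp were computed with bedtools 2.31.1, the rest with Python 3.11.15, pandas 2.3.3, numpy 2.4.6 and scipy 1.17.1, and the interval functions were tested on simulated data. Shares carry 95% Wilson intervals that cover counting error only. No test between groups was possible. Genes named were, per list, the 5 with most intronic peaks, the 3 widest peaks and the 2 longest runs (gaps up to 50 kb), up to 4 genes per gene group, direction and region, up to 5 genes with both directions or an opposed promoter, and all overlapping pairs of opposite direction. Others, such as Asic2, Rxra, Bcl3 as a promoter pair, and the same-direction promoter genes, were chosen after their values were seen. The members, the 16 gene groups and the comparisons were chosen with earlier results of these data known. Some genes within the gene groups are counted but not reported here by name.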

Additional observations from a re-analysis of the deposited data

How the results depend on the processing

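No paired analysis was possible because the pooled peak lists carry no value per rat, and no rat could be left out for the same reason. Of 52 alternatives to 32 results, 35 left the value within its interval or count range and 17 moved it. With a reciprocal overlap of 50%, the share of intronic peaks with a peak in the other region was 57.1% and 61.2% (SN hyperacetylated, hypoacetylated) and 44.4% and 35.4% (motor cortex), and 100% of the pairs shared a direction. With peaks of at least 1000 bp only, the share was 73.9%, 75.6% and 65.4% (both SN lists, motor cortex hyperacetylated), and with peaks up to 1 kb apart 73.1% (motor cortex hyperacetylated). After peaks up to 1 kb apart were merged, the median width was 1707 and 1924 bp in the motor cortex. With gaps of at most 10 kb, 10.1%, 21.3%, 35.6% and 28.9% of intronic peaks had a neighbour of their list, and with 100 kb 56.9% and 52.3% in the motor cortex. The cause was not tested.

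The main limits are the lack of values per rat, an SN list longer than the study describes, misread or shortened names in the list of hypoacetylated motor cortex peaks, whose counts per gene rest on the nearest gene and can be too high or too low, and counts per gene that take no account of gene length.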
